A study of Mus musculus with 3 samples.

Results

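The genes described here are 10 receptors and products linked to regulatory T cells that take part in tissue repair, taken by their GENCODE M21 gene name out of 55536 genes. They are Il1rl1 and Il1rap, which encode the chains of the IL-33 receptor, Il18r1 and Il18rap, which encode those of the IL-18 receptor, the IL-1 decoy receptor gene Il1r2, the adaptor gene Myd88, and Areg, Penk, Pparg and Klrg1. Their annotation holds 40 transcripts. The cells were regulatory T cells (Tregs) described as inflammation-experienced, primary cells of adult male mouse origin, strain Foxp3CreERT2 x Rosa26YFP, at 6 months of age. This strain carries a tamoxifen-inducible Cre placed at Foxp3 and a yellow fluorescent reporter at Rosa26. Polyadenylated RNA was sequenced in 3 libraries that are technical replicates of 1 biological replicate and form 1 group. The sources used here name no stimulus, tissue or sorting gate, and no other Treg state was analysed here. The levels therefore describe 1 biological sample, and the spread between libraries is not a spread between animals.

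IL-33 is an alarm cytokine released by damaged barrier cells, and its receptor is a pair of chains, ST2 (Il1rl1) and the shared accessory protein (Il1rap). IL-18 is sensed by a related pair, Il18r1 and Il18rap, and both receptors signal through cytoplasmic Toll/IL-1 receptor domains that recruit the adaptor Myd88. In tissue Tregs, IL-33 and IL-18 are known to promote the growth factor amphiregulin (Areg), which acts on epithelium through the receptor Egfr. Penk encodes the precursor of the enkephalin opioid peptides, Pparg the nuclear receptor that shapes Tregs of fat, and Klrg1 an inhibitory receptor for cadherins that marks highly differentiated cells.

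Depth was 11829501, 14136139 and 10667765 gene-assigned counts for libraries 1, 2 and 3. A count of 0 allows up to 3 counts, which was 0.254, 0.212 and 0.281 CPM (counts scaled to the library total). These floors and the 95% Wilson intervals cover only the error of counting, as PCR copies of a molecule may be counted apart. The defining T cell and Treg genes were all detected, 9 of 9 at 1 TPM (a level per transcript length and library total) or more in every library, with Trac at 2910.0 ± 86.3 TPM (SD, n = 3) and Foxp3 at 16.1 ± 1.86 TPM. Genes of other blood cells were uneven. Summed TPM of 5 CD8 T cell markers was 19.3, 249 and 78.3 in libraries 1, 2 and 3, that of 10 macrophage and monocyte markers 4.18, 44.6 and 17.2, and that of 7 B cell markers 461, 706 and 889. In bulk RNA, fewer cells of a type and less RNA per cell cannot be told apart.

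Of the 10 genes, 9 were detected at 1 TPM or more in every library, against 10123 of 21990 protein-coding genes. Pparg, the exception, still stood above 50.4% of protein-coding genes. Penk was highest at 695 ± 244 TPM, above 99.2% of the 21990 protein-coding genes. Il18r1 followed at 133 ± 10.5 TPM, then Il1r2 at 132 ± 41.9, Klrg1 at 82.2 ± 13.7, Myd88 at 74.3 ± 5.10 and Il18rap at 59.2 ± 7.50 TPM. A wide step separated these from Il1rl1 at 9.62 ± 0.490, Il1rap at 7.92 ± 0.600, Areg at 4.64 ± 2.36 and Pparg at 0.743 ± 0.0451 TPM (SD, n = 3 each). Along this order, 7 of 9 pairs of neighbours kept the same direction in all 3 libraries. The exceptions were Il18r1 and Il1r2, which differed by 0.06 ± 0.326 on the log2(TPM + 0.1) scale, and Klrg1 and Myd88, which differed by 0.13 ± 0.328. Without an incomplete Il1rl1 transcript described with that gene, 6 of 9 pairs did, as Il1rl1 was then under Il1rap in library 2. With 3 libraries the exact two-sided sign-flip permutation test cannot go below p = 0.25, so no neighbouring pair could pass 0.05.

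**Figure D1:**
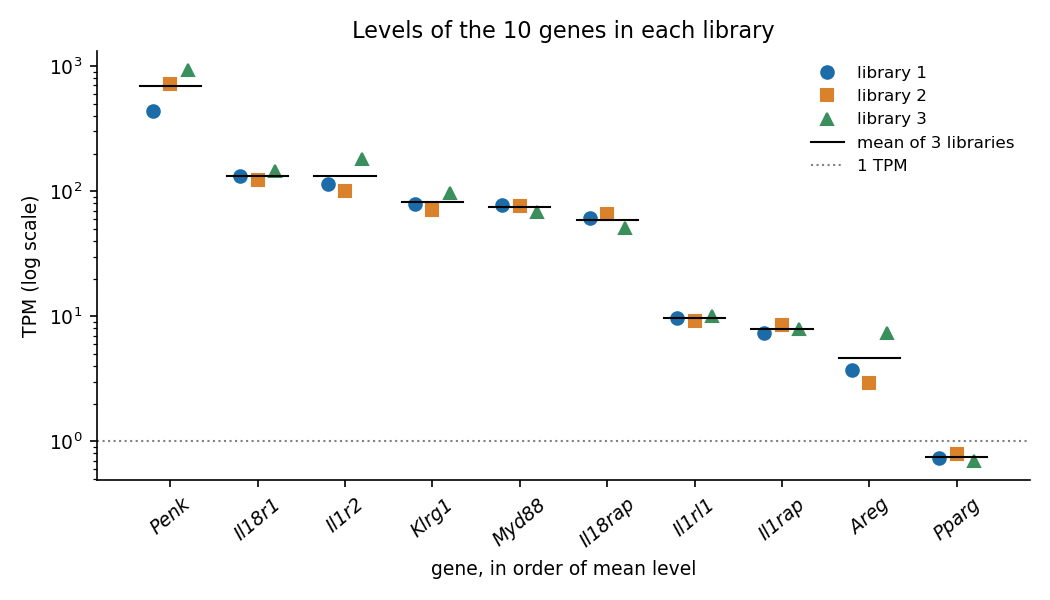
TPM on a log axis of the 10 genes in libraries 1, 2 and 3 (points), with the mean of the 3 libraries as a bar and 1 TPM as a dotted line. Penk stands at 439 to 926 TPM, 5 genes lie between 51.1 and 179 TPM, and Pparg lies under 1 TPM in each library.

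Differences between the libraries were set against counting noise by a Poisson chi-square test of homogeneity on rounded counts. Over all genes averaging at least 10 counts, 6388 of 13970 (45.7%) passed at a Benjamini-Hochberg adjusted p of 0.05. Of the 10 genes, 8 passed and Il1rap and Pparg did not. Their median count was 1164, against 238 over all tested genes, and a higher count gives this test more power. The median ratio of the highest to the lowest library was 1.31 for the 10 genes and 1.26 over all tested genes. Genes that passed with their highest level in library 1, 2 or 3 made up 14%, 15.5% and 16.2% of those tested. Among the 10 genes, 1 peaked in library 1, 2 in library 2 and 5 in library 3. Without library 3, which holds the peak of those 5, 3 of the 10 genes passed, namely Il1rl1, Il1r2 and Penk. Over all genes the share fell as well, to 2978 of 13964 (21.3%).

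**Figure D2:**
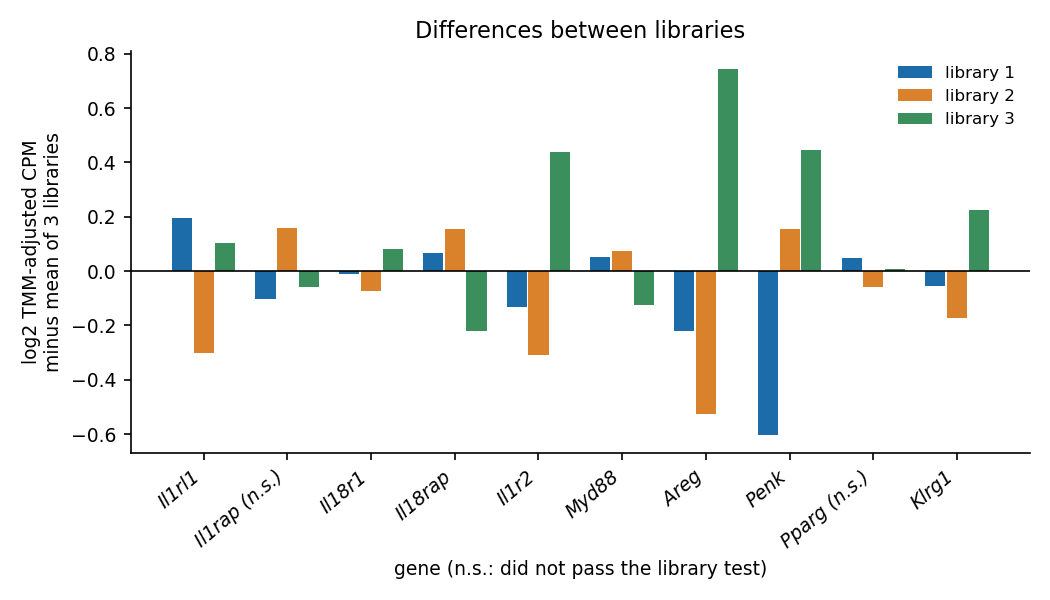
For each gene, the log2 TMM-adjusted CPM in libraries 1, 2 and 3 minus the mean of the 3 libraries (bars). Areg, Il1r2, Penk and Klrg1 are highest in library 3, Il1rl1 is lowest in library 2, and the genes marked n.s. did not pass the test.

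The IL-33 receptor chain gene Il1rl1 (ENSMUSG00000026069.15) lies on the plus strand of chromosome 1 (mm10) at chr1:40429570-40465415. It had 420, 349 and 368 estimated counts and 9.61, 9.13 and 10.1 TPM in libraries 1, 2 and 3. The TPM values were nearly level, whereas TMM-adjusted CPM was 35.7, 25.3 and 33.5, with library 2 lowest. The counts differed between libraries by 1.41-fold (Poisson chi-square test, adjusted p = 2.4e-05), and without library 2 this call was lost (adjusted p = 0.536). The gap between the scales followed the effective length given to the gene, which was 4825, 3501 and 4385 bases in libraries 1, 2 and 3. In library 2 a 375-base transcript with an incomplete annotated end, Il1rl1-204, was assigned 9.91 counts, against 0 and 1.07 counts in libraries 1 and 3. Because TPM divides by length, those 9.91 counts took 30.5% of the gene's TPM in library 2. Without Il1rl1-204 the level was 9.62, 6.35 and 9.72 TPM in libraries 1, 2 and 3, so that library 2 was lowest on this scale too.

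Il1rl1 makes a membrane receptor and a soluble form that binds IL-33 outside the cell without signalling. Transcripts Il1rl1-201 and Il1rl1-202 share 1 coding sequence of 567 codons, the membrane form. Il1rl1-203 and Il1rl1-205 share another of 337 codons, the short form. Both forms have 328 codons in common. The bases around the point where they part are shown because this junction is what separates the signalling receptor from the decoy. Lower case is the last stretch of shared coding sequence and capitals are the bases that differ in origin, with the short form read through to its stop codon.
Il1rl1-201, membrane form, chr1:40446646-40450104: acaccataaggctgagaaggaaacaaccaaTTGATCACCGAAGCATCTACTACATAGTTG
Il1rl1-203, short form, chr1:40446646-40446704: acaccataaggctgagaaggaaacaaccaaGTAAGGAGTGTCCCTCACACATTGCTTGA
The short form ran on past the exon end into the next bases of the genome, added 9 codons of its own and stopped. The membrane form joined to an exon further downstream and went on for another 239 codons.

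Most reads of Il1rl1 were assigned to the membrane form. Its transcripts held 403, 323 and 346 estimated counts in libraries 1, 2 and 3, and the short form held 17.1, 16.5 and 20.6. The short form was thus 4.07% (95% Wilson interval 2.54 to 6.39), 4.72% (2.84 to 7.32) and 5.61% (3.76 to 8.57) of the gene's counts, or 4.80% ± 0.772 (SD, n = 3). The 3 intervals overlap. By share of TPM the short form was larger, at 10.6%, 6.35% and 15.3% in libraries 1, 2 and 3, since its transcripts are shorter. On the scale of levels the membrane form stood at 8.60, 5.77 and 8.17 TPM and the short form at 1.02, 0.58 and 1.55 TPM. The membrane form was thus above the short form in each of the 3 libraries.

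The Il1rl1 transcripts also differ in where they begin. Il1rl1-205 begins at the distal start, Il1rl1-202 begins 10057 bases downstream of it, Il1rl1-203 10206 bases downstream and Il1rl1-201 11058 bases downstream. No annotated transcript joins the distal start to the full-length end. Il1rl1-205 had 5.62, 0 and 10.5 counts in libraries 1, 2 and 3, so few reads were assigned to this transcript. Reads of a full-length transcript from the distal start would have no model of their own. These counts therefore do not measure how much that start was used. Il1rl1-202 had 283, 158 and 149 counts and Il1rl1-201 had 120, 165 and 197 counts in libraries 1, 2 and 3. Il1rl1-202 led in library 1 and Il1rl1-201 led in libraries 2 and 3. These 2 transcripts differ mainly at their starts, and the deposited posterior SD of their counts was 61.6 to 74.3 reads. Across all genes with at least 2 transcripts averaging 5 counts, 7019 of 8889 (79%) had a transcript mix that differed between libraries in a chi-square test. Il1rl1, Il18r1 and Il1r2 were 3 of 7 tested genes here that did. Once the posterior SD was added to the variance, 2066 of 8889 (23.2%) passed, and none of the 7 did, with Il1rl1 at an adjusted p of 0.447.

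**Figure D3:**
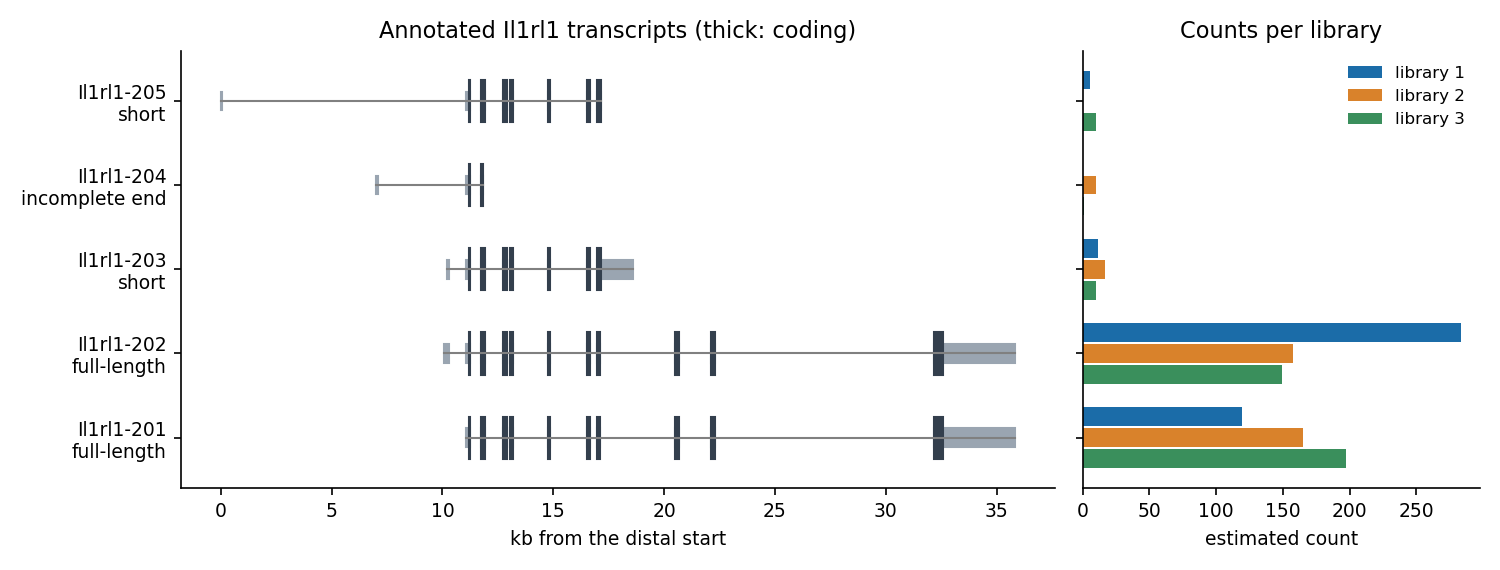
Left, the 5 annotated Il1rl1 transcripts in kb from the distal start, with exons as boxes and coding parts in dark. Right, their estimated counts in libraries 1, 2 and 3 (bars), which are largest for the full-length transcripts Il1rl1-201 and Il1rl1-202.

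RefSeq places 2 starts for Il1rl1 on GRCm38.p6, 10059 bases apart. The 250 bases before each are shown because the transcripts assigned to these starts differed in count. Capitals mark matches to the GATA motif (spelled AGATAA, where the leading letter may also be T and the closing letter also G, on either strand), which zinc finger factors such as Gata3 bind.
Il1rl1 distal start, chr1:40429320-40429569, plus strand: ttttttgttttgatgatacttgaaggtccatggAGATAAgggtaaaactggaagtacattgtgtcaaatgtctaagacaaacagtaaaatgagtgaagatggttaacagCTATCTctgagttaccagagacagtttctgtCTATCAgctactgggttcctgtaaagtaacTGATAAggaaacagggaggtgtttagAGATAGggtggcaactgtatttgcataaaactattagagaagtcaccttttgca
Il1rl1 proximal start, chr1:40439379-40439628, plus strand: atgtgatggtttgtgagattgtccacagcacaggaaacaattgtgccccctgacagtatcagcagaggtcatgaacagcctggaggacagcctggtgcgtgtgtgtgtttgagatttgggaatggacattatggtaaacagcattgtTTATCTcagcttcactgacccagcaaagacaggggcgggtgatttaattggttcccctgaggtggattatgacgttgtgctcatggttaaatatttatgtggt
The distal window held 5 GATA matches and the proximal window held 1. Windows of this length before 32851 RefSeq starts held at least 1 match in 26.5% of cases. The AP-1 motif (TGANTCA on either strand) was found in neither window and in 6.75% of all windows. RefSeq windows were matched for 8 of the 10 genes, 13 in all, of which 4 held a GATA match (both of Il1rl1, that of Il18rap and that of Il1r2) and 0 an AP-1 match. A match is a run of letters and not a measured site.

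Il1rap (ENSMUSG00000022514.14, chr16:26581704-26730117, plus strand) encodes the accessory chain that IL-33 and IL-1 receptors share. It had 247, 347 and 238 counts and 7.31, 8.51 and 7.95 TPM in libraries 1, 2 and 3. Library 2 was highest, and the differences did not pass the test (adjusted p = 0.110). Il1rl1 was above Il1rap in each library, by 0.28 ± 0.155 on the log2 scale (SD, n = 3, exact sign-flip p = 0.25), but this rested on Il1rl1-204. Without that incomplete transcript Il1rl1 was at 6.35 TPM in library 2, under Il1rap, and the difference was 0.09 ± 0.440 (exact sign-flip p = 1). This gene too has a truncated form, Il1rap-206, known as the soluble accessory protein. It shares 350 codons with the full-length Il1rap-201 and adds 10 of its own, against 220 further codons in the full-length form. The junctions are shown because the same kind of read-through past an exon end occurs as in Il1rl1, with capitals for the part not shared.
Il1rap-201, full-length form, chr16:26701207-26710512: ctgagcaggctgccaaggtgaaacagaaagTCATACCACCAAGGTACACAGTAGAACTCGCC
Il1rap-206, truncated form, chr16:26701207-26701268: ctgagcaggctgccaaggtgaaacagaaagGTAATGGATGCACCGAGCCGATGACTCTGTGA
The truncated form held 49.9, 70.1 and 54.7 counts, which was 20.2%, 20.2% and 23.0% of the gene's counts in libraries 1, 2 and 3 (21.1% ± 1.60). By TPM its share was 33.4%, 33.4% and 36.7%, close to constant between libraries.

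Il18r1 (ENSMUSG00000026070.15, chr1:40465552-40500854, plus strand) encodes the chain that binds IL-18 and begins 136 bases after the end of Il1rl1. It had 3307, 3721 and 3298 counts and 131, 124 and 144 TPM in libraries 1, 2 and 3. Library 3 was highest and library 2 lowest, a ratio of 1.11 in CPM that passed the test (adjusted p = 0.000195) and was lost without library 3 (adjusted p = 0.196). The level of Il18r1 was 13.8 times that of its neighbour Il1rl1, a difference of 3.78 ± 0.0418 on the log2 scale. Without Il1rl1-204 the difference was 3.76, 4.26 and 3.88 in libraries 1, 2 and 3 (3.97 ± 0.262), so the small spread rested on that transcript. This pair, like the other receptor pairs below, was chosen after the levels had been seen.

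Many Il18r1 counts fell on transcripts that end early. Il18r1-202 and Il18r1-206 encode 537 codons and held, with Il18r1-201 at 0 counts, 2486, 2794 and 2436 counts in libraries 1, 2 and 3. Il18r1-203, Il18r1-204 and Il18r1-205 held 821, 927 and 862 counts. Il18r1-203 and Il18r1-204 encode 372 codons and Il18r1-205 encodes 267. The coding sequence of Il18r1-204 shares 367 codons with the full-length one and then adds 5, in place of the final 170 codons, a part of the receptor that is cytoplasmic and carries the signalling domain. Their junctions are given as for Il1rl1, with capitals for the part not shared.
Il18r1-206, full-length form, chr1:40491187-40495778: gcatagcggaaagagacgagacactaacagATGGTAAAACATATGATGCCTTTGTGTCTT
Il18r1-204, truncated form, chr1:40491187-40491233: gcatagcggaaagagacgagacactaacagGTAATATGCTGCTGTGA
The truncated forms made up 24.8%, 24.9% and 26.1% of counts (25.3% ± 0.723) and 41.3%, 40.7% and 42.6% of TPM in libraries 1, 2 and 3. This share was steadier than the split among single transcripts, since Il18r1-203 held 37.7, 129 and 148 counts. With the posterior SD added, the transcript mix of Il18r1 did not pass the test (adjusted p = 0.157).

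**Figure D4:**
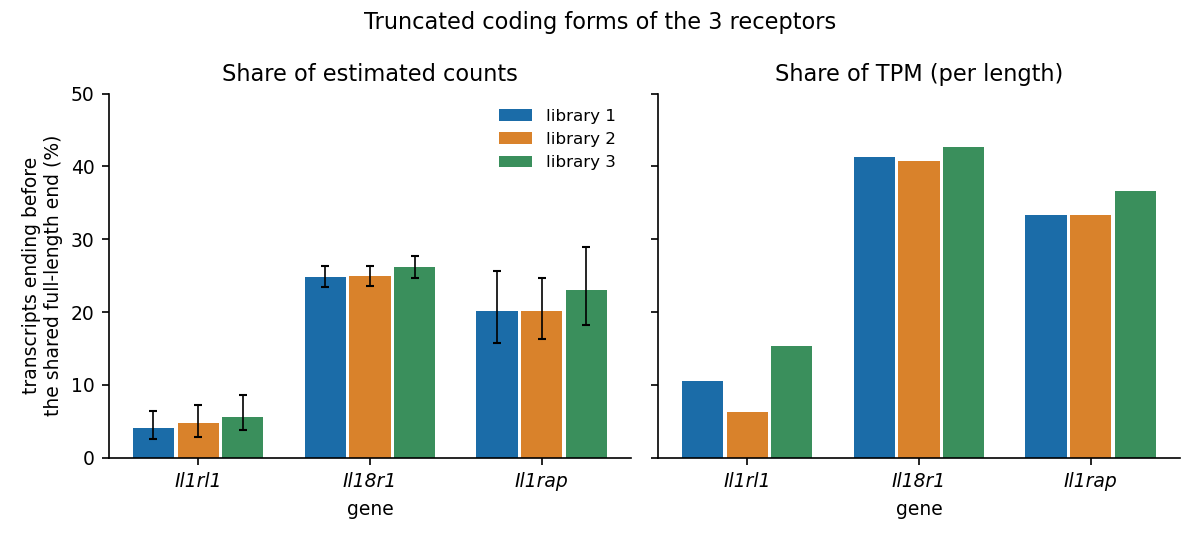
Percent of the estimated counts (left, with 95% Wilson intervals as bars) and of TPM (right) that fell on truncated coding forms of Il1rl1, Il18r1 and Il1rap in libraries 1, 2 and 3. Truncated Il18r1 takes 24.8% to 26.1% of counts, truncated Il1rap 20.2% to 23.0% and short Il1rl1 4.07% to 5.61%.

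Il18rap (ENSMUSG00000026068.11, chr1:40515362-40551705, plus strand) encodes the second chain of the IL-18 receptor, needed for signalling, and lies 14507 bases beyond Il18r1. It had 2220, 2771 and 1700 counts and 60.8, 65.8 and 51.1 TPM in libraries 1, 2 and 3. Library 2 was highest and library 3 lowest, by 1.30-fold in CPM (adjusted p = 1.91e-15), and without library 3 the call was lost (adjusted p = 0.114). Il18r1 was above Il18rap in each library, by 1.17 ± 0.300 on the log2 scale, or 2.25 times by mean TPM. NK and CD8 T cells also use Il18rap, and the summed levels of their markers were highest in library 2 as well. Summed TPM of 10 NK cell markers was 44.5, 89.4 and 46.8 and that of 5 CD8 T cell markers 19.3, 249 and 78.3, and the granzyme gene Gzmk had 47, 2130 and 440 counts in libraries 1, 2 and 3. Not all followed this order, as the defining genes Ncr1 and Cd8a had 6, 4 and 2 counts and 2, 23.1 and 48 counts. The part of these cells in the Il18rap difference was not tested. Transcripts that keep an intron held 5.89%, 6.87% and 6.63% of Il18rap counts and 21.5%, 25.8% and 22.6% of its TPM in libraries 1, 2 and 3, and the coding Il18rap-201 held the rest.

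Il1r2 (ENSMUSG00000026073.13, chr1:40074079-40125231, plus strand) encodes a decoy receptor that binds IL-1 and has no signalling domain. It had 1361, 1413 and 1889 counts and 115, 100.5 and 179 TPM in libraries 1, 2 and 3. Library 3 stood above the other 2, by 1.68-fold in CPM over library 2 (adjusted p = 2.72e-53). Without library 3 the gene still passed, at 1.13-fold (adjusted p = 0.00856). The signalling IL-1 receptor gene Il1r1, which lies next to Il1r2 on chromosome 1, was at 3.95, 2.44 and 3.43 TPM. The decoy was thus 40.2 times as high as the signalling receptor by mean TPM, or 5.27 ± 0.422 on the log2 scale, in the same direction in all 3 libraries. Myeloid cells are another source of Il1r2. The neutrophil genes S100a8 and Retnlg had 0, 28 and 8 counts and 0, 0 and 2 counts in libraries 1, 2 and 3, and Lyz2 had 16.7, 441 and 123. S100a8 and Lyz2 were highest in library 2, whereas Il1r2 was lowest there. Mmp9, the highest of 10 neutrophil markers, ran in the same order as Il1r2, at 3.96, 2.07 and 5.44 TPM in libraries 1, 2 and 3, while the summed level of the list was 4.83, 14.0 and 9.38 TPM. The part of myeloid cells in the Il1r2 difference was not tested. The gene's main transcript Il1r2-201 took 94.2%, 91.3% and 88.9% of its TPM in libraries 1, 2 and 3. An antisense gene, Gm16894, overlaps it with 26, 30 and 46 counts, and since the sources used here give no strand setting, reads of the 2 cannot be told apart.

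The genes from Il1r2 to Il18rap span 477627 bases of chromosome 1, and Il1r1 and Il1rl2 lie between Il1r2 and Il1rl1. Within this cluster the mean levels were 132 TPM for Il1r2, 3.27 for Il1r1, 1.76 for the IL-36 receptor gene Il1rl2, 9.62 for Il1rl1, 133 for Il18r1 and 59.2 for Il18rap. The high genes thus stood at the ends of the cluster and the low ones in its middle. Sigirr, an inhibitory member of the receptor family on another locus, was at 116 ± 2.24 TPM, within the range of Il1r2, and did not differ detectably between libraries (adjusted p = 0.43). The brain-associated Il1rapl1 and Il1rapl2 were at most 0.13 TPM. Of these 5 other family receptors, 3 were detected, 3 could be tested and 0 passed the Poisson chi-square test.

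Ligands of the family were mostly low. Of 11 ligand and antagonist genes, 2 were detected in every library, Il18 and the soluble IL-18 antagonist Il18bp. Il18 had 36, 65 and 25 counts and 4.99, 7.29 and 3.68 TPM in libraries 1, 2 and 3, highest in library 2 (adjusted p = 0.011). Il18bp was at 3.64 ± 0.853 TPM. Il1rn, the IL-1 receptor antagonist, was at 1.06, 0.45 and 1.34 TPM, lowest in library 2 (adjusted p = 0.0033). Il33 itself had 3, 0 and 3 counts, at or under the floor, and Il1b had 0, 21 and 2. The IL-36 genes Il1f6 and Il1f8 and the related Il1f10 were at 0 in all 3 libraries.

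Myd88 (ENSMUSG00000032508.8, chr9:119335934-119341411, minus strand) links the Toll/IL-1 receptor domain to IRAK kinases. It had 1277, 1524 and 1055 counts and 78.0, 76.6 and 68.5 TPM in libraries 1, 2 and 3. Library 3 was lowest, by 1.15-fold in CPM (adjusted p = 0.00396), and the call was lost without library 3 (adjusted p = 0.810). By mean TPM the adaptor was 7.73 times as high as Il1rl1. The full-length Myd88-201 took 91.6%, 92.5% and 94.8% of TPM. Acaa1a, a gene on the other strand that overlaps Myd88, had 535, 603 and 423 counts, so some reads there are uncertain.

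Genes that act with or below this adaptor were nearly all present. The list of 20 also holds Tirap, which bridges receptors to Myd88, and Ticam1, a separate adaptor. Of the 20, 18 were detected and tested and 9 passed, against 45.7% of all tested genes, with a median ratio between libraries of 1.16 against 1.26 over all tested genes. Of those 9, 2 were highest in library 1, 2 in library 2 and 5 in library 3. Over all tested genes, 14%, 15.5% and 16.2% passed with their highest level in library 1, 2 and 3. The highest were Ikbkb at 71.8 ± 6.29 TPM and Chuk at 39.7 ± 2.48, which encode kinases that release NF-kappaB, Tnfaip3 (A20), which restrains it, at 40.1 ± 6.45, and the ubiquitin ligase gene Peli1 at 38.4 ± 5.96. Irak3, the kinase family member that inhibits signalling, was under 1 TPM in every library, at 0.4, 0.43 and 0.26 TPM, as was Peli2 at 0.22 ± 0.130.

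**Figure D5:**
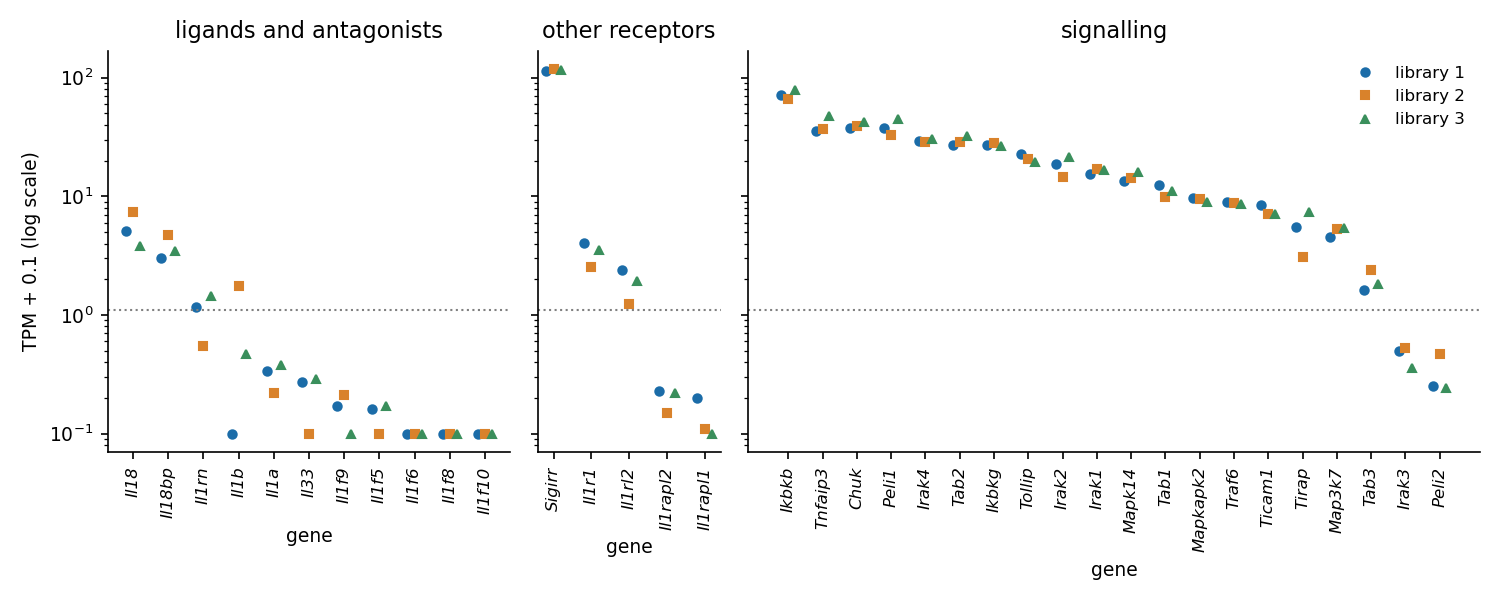
TPM + 0.1 on a log axis of IL-1 family ligands and antagonists, of family receptors other than the 10 genes, and of signalling genes with or below Myd88, in libraries 1, 2 and 3 (points), with 1 TPM as a dotted line. Of these groups 2 of 11, 3 of 5 and 18 of 20 genes are at 1 TPM or more in every library.

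Areg (ENSMUSG00000029378.5, chr5:91139599-91148432, plus strand) encodes amphiregulin and was low. It had 39, 37 and 71 counts and 3.69, 2.90 and 7.33 TPM in libraries 1, 2 and 3. Library 3 was 2.41 times library 2 in CPM (adjusted p = 4e-05), and without library 3 the remaining libraries did not differ detectably (1.24-fold, adjusted p = 0.551). Summed TPM of 10 mast cell and basophil markers, 4 of them at 0 throughout, was 3.19, 3.00 and 6.54, also highest in library 3. That of 6 markers of type 2 innate lymphoid cells was 3.71, 2.99 and 2.96, highest in library 1. The part of other cells in the Areg difference was not tested. Amphiregulin is made as a membrane precursor that the protease encoded by Adam17 sheds. Adam17 was at 52.8 ± 4.39 TPM, its relative Adam10 at 69.6 ± 2.12 and the Adam17 partner Rhbdf2 at 7.32 ± 0.706. Of 18 EGF family, receptor and sheddase genes, 6 were detected and 7 tested, of which 4 passed, against 45.7% of all tested genes. In TMM-adjusted CPM these 4 were lowest in library 3, but no share over all genes was taken for the lowest library. The receptor gene Egfr had 8, 2 and 2 counts, whereas Erbb3 was at 9.63, 7.42 and 7.53 TPM. Other ligand genes were low, with Hbegf at 1.54 ± 0.357 TPM, Tgfa at 2, 0 and 0 counts and Epgn at 0 in all libraries.

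Penk (ENSMUSG00000045573.9, chr4:4133531-4138819, minus strand) was the most abundant of the 10 genes and had the largest test statistic, which grows with the count. By ratio of the highest to the lowest library Areg varied more, at 2.41-fold in CPM. It had 4536, 8998 and 8757 counts and 439, 718 and 926 TPM in libraries 1, 2 and 3. Library 1 was lowest and library 3 highest, by 2.07-fold in CPM with a chi-square per degree of freedom of 821, where counting noise gives 1. Without library 1 the ratio was 1.22, still past the test (adjusted p = 1.05e-41). The whole-number count tables gave a smaller ratio of 1.25, from 1363, 1615 and 1594 counts, with library 3 again highest. In CPM these were 461, 475 and 578 in libraries 1, 2 and 3, so libraries 1 and 2 lay close there. Estimated counts gave 386 and 652 CPM for libraries 1 and 2. The chi-square per degree of freedom of Penk in the whole-number tables was 23.2, below the 50.7 of Il1r2. Most B cell markers, 6 of 7, were also lowest in library 1. This was not particular to B cells. Among markers that passed the test, 4 of 5 CD8 T cell, 4 of 4 macrophage and monocyte and 3 of 6 NK cell markers were lowest there. No share over all genes was taken for the lowest library, so these counts have no background beside them. Igkc, the kappa light chain constant gene, had 198, 1625 and 1625 counts in libraries 1, 2 and 3. The part of other cells in the Penk difference between libraries was not tested. A noncoding gene on the other strand, A830012C17Rik, overlaps Penk with 48.2, 88.3 and 83.2 counts.

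The Penk coding sequence holds repeated enkephalin units, and the precursor is cut at pairs of basic residues. The full-length Penk-201 held 7 in-frame units, in 6 different spellings. Of these, 6 held the 5 codons of Met-enkephalin and 1 those of Leu-enkephalin, and units are named by these codons alone. Pairs of basic codons flanked 5 units on both sides, and units 4 and 7 had such a pair on their 5′ side alone. For units 4 and 7, cuts at basic pairs would thus not part the 5 codons from those that follow. Shown are the first unit, the last that Penk-202 also holds, the leucine unit and the final one, each read along the minus strand, with capitals for the 5 codons of the peptide and lower case for the codons beside it.
Penk unit 1, Met-enkephalin, chr4:4134328-4134354: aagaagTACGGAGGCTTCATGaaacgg
Penk unit 3, Met-enkephalin, chr4:4134220-4134246: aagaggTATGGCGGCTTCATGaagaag
Penk unit 6, Leu-enkephalin, chr4:4133935-4133961: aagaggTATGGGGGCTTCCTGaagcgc
Penk unit 7, Met-enkephalin, chr4:4133842-4133868: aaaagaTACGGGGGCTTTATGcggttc
Penk-202, whose annotated end is incomplete, holds 3 of the units. Penk-201 took 64.4%, 65.3% and 64.1% of the TPM in libraries 1, 2 and 3 and Penk-202 the rest, a mix that did not pass the test (adjusted p = 0.383). The difference in level between libraries was thus not matched by one in transcript shares.

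Genes that process and sense opioid peptides were sparse by comparison. Of 15, 6 were detected and 7 tested, and 4 passed, against 45.7% of all tested genes. In TMM-adjusted CPM these 4 were highest in library 3. Over all tested genes, 16.2% passed with their highest level there. Prohormones are cut by convertases, of which Furin was at 16.6 ± 2.75 TPM, Pcsk7 at 16.3 ± 2.56 and Pcsk1, the convertase of endocrine cells, at 1.94 ± 0.520. Cpe, the carboxypeptidase that trims the cut peptides, was at 3.00, 1.25 and 4.97 TPM in libraries 1, 2 and 3. Pcsk2, a convertase needed for enkephalin in neuroendocrine cells, had 1, 0 and 0 counts. The delta receptor gene Oprd1 also had 1, 0 and 0 counts, the mu receptor gene Oprm1 was at 0.77, 0.55 and 1.18 TPM, and the related precursor gene Pdyn was at 0.

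Pparg (ENSMUSG00000000440.12, chr6:115360951-115490399, plus strand) was near the limit of detection. It had 11, 12 and 10 counts and 0.74, 0.79 and 0.70 TPM in libraries 1, 2 and 3, with no detectable difference (adjusted p = 0.988). At such counts the assignment to transcripts swung from one to another. Pparg-204 held 10.2 and 10.9 counts in libraries 1 and 2 and 0 in library 3, where Pparg-201 held all 10 counts. These differ in their start and encode 475 and 505 codons. The posterior mean share was 11.5%, 11.4% and 13.4% for Pparg-204 and 12.8%, 9.82% and 14.7% for Pparg-201, which do not set the 2 apart. Fat and stromal cells are another source of Pparg. As with Pparg itself, 9 of 9 of their markers were under 1 TPM, with Cfd and Col3a1 at 0 and Col1a1 at 4, 12 and 16 counts, and their part in the Pparg level was not tested.

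Partners of this receptor were higher than Pparg itself. Of 12 partner and co-regulator genes, 9 were detected and tested and 5 passed, against 45.7% of all tested genes. In TMM-adjusted CPM these 5 were lowest in library 2, a direction for which no share over all genes was taken. The co-repressor gene Ncor1 was at 137 ± 5.05 TPM, the Mediator gene Med1 at 41.5 ± 3.67, Ncoa2 at 20.1 ± 0.972 and the dimer partner Rxra at 8.14 ± 2.13. Ppard was at 2.21 ± 0.361 TPM, Ppara had 1, 0 and 0 counts and Rxrg was at 0. Of 13 genes that Pparg is known to activate in fat, 6 were detected, near the share over all protein-coding genes (10123 of 21990). They were led by the triglyceride synthesis gene Dgat1 at 71.1 ± 11.7 TPM and Plin2, which coats lipid droplets, at 24.7 ± 2.52. Cpt1a, for fatty acid import into mitochondria, was at 21.04 ± 5.08. The fatty acid uptake gene Cd36 was at 0.04, 0.68 and 0.74 TPM in libraries 1, 2 and 3, and 4 of the 8 tested targets passed, near the share over all genes.

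Klrg1 (ENSMUSG00000030114.8, chr6:122270596-122282882, minus strand) has 1 annotated transcript here. It had 973, 1053 and 1103 counts and 78.7, 70.6 and 97.3 TPM in libraries 1, 2 and 3. Library 3 was highest, by 1.32-fold in CPM over library 2 (adjusted p = 4.97e-09), and the call was lost without library 3 (adjusted p = 0.184). NK and CD8 T cells carry Klrg1 too. Their summed markers, given with Il18rap, were highest in library 2, where Klrg1 was lowest. That CD8 sum was mostly Gzmk, at 202 of 249 TPM in library 2. The defining CD8 genes were highest in library 3, as Klrg1 was, with Cd8a at 0.12, 0.97 and 2.85 TPM and Cd8b1 at 5.76, 11.4 and 12.4 TPM in libraries 1, 2 and 3. The NK receptor gene Klrb1c, with 9.24, 5.27 and 27.9 counts, ran in the order of Klrg1. The part of these cells in the Klrg1 difference was not tested. The phosphatases that its inhibitory tail recruits were present, with Inpp5d (SHIP-1) at 110 ± 10.5 TPM and Ptpn11 (SHP-2) at 10.7 ± 0.672, beside Ptpn6 at 103 ± 9.45. Its cadherin ligand genes were under 1 TPM in every library, with Cdh1 at 0.333 ± 0.240 and Cdh2 at 0.167 ± 0.110.

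Other cell types that carry ST2 were looked for through their markers. Of 10 mast cell and basophil markers, 1 was detected in every library, Kit at 1.94, 2.05 and 4.44 TPM, and Mcpt4, Tpsb2, Fcer1a and Mcpt8 were at 0. The summed level of this list was 3.19, 3.00 and 6.54 TPM in libraries 1, 2 and 3. Of 6 markers of type 2 innate lymphoid cells, 1 was detected, Arg1 at 1.07, 1.76 and 1.17 TPM, while Il17rb was at 1.39 ± 0.510, Il13 had 1, 2 and 1 counts and Il5 had 0, 0 and 1. Their summed level was 3.71, 2.99 and 2.96 TPM.

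Other genes linked to tissue Tregs were all detected, at levels that differed widely. The 18 on the list were led by Id2 at 1178 ± 63.3 TPM, Tigit at 685 ± 25.3, Cxcr6 at 451 ± 7.52 and Icos at 351 ± 57.7, while Nfil3 was at 3.13 ± 0.906 and Il10 at 8.31 ± 2.66. Of the 18, 15 passed the library test, against 45.7% of all tested genes, at counts that reached 15750 and give the test more power. Their median ratio between libraries was 1.19, below the 1.26 over all tested genes. Their direction was mixed, with 6 highest in library 1, 5 in library 2 and 4 in library 3. Over all tested genes, the shares that passed and peaked in these libraries were 14%, 15.5% and 16.2%. Over the 8518 protein-coding genes averaging at least 100 counts, those closest to Il1rl1 in pattern over the 3 libraries were Smco4, Cass4 and Ppp4r1, at a Euclidean distance of 0.0031, 0.013 and 0.019 in centred log2 CPM. A total of 50 genes lay within 0.1 of Il1rl1. For Penk the closest were Mapkapk5 at 0.103, Cd22 at 0.112 and Zfp867 at 0.131, and 0 lay within 0.1. With 3 libraries such likeness is a description only.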

How the data were processed

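Tables of 3 libraries were used as deposited. Estimated counts, TPM and FPKM per gene and transcript were made by the authors on mm10 with GENCODE M21, in the RSEM column layout, per the file headers and the deposited file descriptions. The same deposited tables give the percent of a gene's TPM per transcript and, as a signal in reads, the posterior SD of each count. The authors also deposited gene counts in whole numbers, made on GENCODE M4. The sources used here name no aligner, tool version, read length or strand setting.

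Estimated counts were rounded. With 1 group, no test between groups could be run, so a Poisson chi-square test compared libraries per gene (mean count of 10 or more), with TMM-adjusted sizes (edgeR 4.0.16 in R 4.3.3, factors 0.994, 0.976 and 1.03) and Benjamini-Hochberg adjustment over 13970 genes. A second chi-square test compared transcript counts within genes. Both were run on counts simulated with Poisson noise, which is the noise they assume. Such a run could not show calls of too many genes from other noise. Other tools were Python 3.11.15, SciPy 1.17.1 and DESeq2 1.42.0 (size factors only). A p-value here measures only the spread between these libraries, which is technical. Reads enter the test as independent, so it calls too many genes. Junction sequences were read from GENCODE M21 transcripts and start windows from RefSeq (GRCm38.p6). IL-36 genes were matched through RefSeq synonyms.

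The 10 genes and the lists were chosen with earlier results of these data known. Named list genes are those with the highest mean TPM, up to 4 a list, and low genes that define the list. Others are named for their roles, and Il1r1, Il1rl2, Il18bp, Erbb3, Gzmk, Cd8a, Cd8b1, Klrb1c, Nfil3, Il10, Col1a1, Igkc, Lyz2 and Pcsk1 were named after their values were seen. For Il1rl1 and Penk, the 3 genes nearest in pattern are named.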

Additional observations from a re-analysis of the deposited data

How the results depend on the processing

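In place of 6388 genes that differed between libraries, 2157 of 10013 tested (21.5%) did with the whole-number tables. When 1 library was left out, 2978 to 4765 did, or 21.3% to 33.8% of those tested. Of the 8 genes called among the 10 described, 5 of 9 tested passed with the whole-number tables, where Il1rl1 (adjusted p = 0.0743), Il18r1 (0.137) and Myd88 (0.716) no longer did, and 3 to 8 passed when 1 library was left out. DESeq2 size factors, a lower filter, the posterior SD and posterior means kept all 8 calls, with 6384, 7513, 5690 and 6326 genes called over all. Total count scaling lost Myd88 (adjusted p = 0.102). The cause of these losses was not tested. Transcript mixes differed for 2066 genes with the posterior SD added, in place of 7019, and for 5791 to 6060 genes when 1 library was left out. With transcripts of mean count 1 or more, Il1rap (adjusted p = 0.0023) and Pparg (4.36e-07) also passed, and Pparg did so without library 1 (1.19e-05) or library 2 (2.05e-05). The order of levels was the same under FPKM, posterior means and a pseudocount of 1, and 7 to 8 of 9 neighbours kept their direction when 1 library was left out, though the order itself then changed. Without the incomplete Il1rl1 transcript, an alternative chosen after seeing the data, 6 of 9 did. The short Il1rl1 form took 10.8% of TPM on average, 8.48% to 13.0% when 1 library was left out, 12.0% by the posterior mean and 4.80% of the counts. This last alternative too was chosen after seeing the data, and it differs by construction, since counts are not divided by length. No paired analysis was possible because the libraries form 1 group. At the depth of these libraries, Pparg, Il33, Egfr and the distal-start Il1rl1 transcript rest on 12 counts or fewer per library.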
